A study of Homo sapiens with 18 samples.

Results

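The 9 genes SESN2, DDIT4, TRIB3, PPP1R15A, CHAC1, NUPR1, STC2, VEGFA and VLDLR encode effectors of the cellular stress response, several of them brakes on growth signalling. They were taken by gene symbol from the array annotation, which gave them 24 of the 31332 features that had exactly 1 gene, and they made up 9 of the 18334 genes measured. VEGFA had 13 features, DDIT4, TRIB3 and STC2 had 2 each, and the other 5 genes had 1 each.

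When cells run short of amino acids, misfold proteins in the endoplasmic reticulum or suffer oxidative damage, kinases phosphorylate the translation factor eIF2alpha, which slows protein synthesis but favours translation of the transcription factor ATF4. ATF4 and its partners then switch on genes for amino acid supply together with effectors that damp the growth kinase complex mTORC1 and AKT, restore eIF2alpha to its unphosphorylated form and break down glutathione. Several of the same effectors also answer to other signals, such as hypoxia-inducible factor for VEGFA and DDIT4.

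The data came from K562, an established human chronic myelogenous leukaemia line, under 4 conditions that shared vehicle, culture and harvest time. Heteronemin, a sesterterpenoid from a marine sponge, was added at 6 µM to the heteronemin and cotreated cells and replaced by DMSO in the others. TNFalpha, an inflammatory cytokine, followed at 2 h at 10 ng/mL in the TNFalpha and cotreated cells, with water in its place elsewhere, and all cells were harvested at 6 h. RNA was set against RNA on 18 two-colour arrays in 3 comparisons: TNFalpha over untreated, heteronemin over untreated, and cotreated over TNFalpha. Each comparison had 3 biological replicates, each hybridised on 2 arrays with the dyes exchanged, so n = 3 throughout.

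All values below are log2 ratios of the first-named condition over the second, averaged over a gene's features and over the 2 arrays of a replicate. A ratio of 1 is a doubling. Ratios carry no level, so the genes cannot be ranked by abundance and the identity of the line cannot be checked from erythroid markers. Of 14 such markers measured, none passed the test in any comparison. Of all genes 0% passed it under TNFalpha, 4.87% under heteronemin and 6.55% in the cotreated comparison. Without replicate 1, 4 of 14 markers were called lower in each heteronemin comparison. Among all 18334 genes 1226 and 1499 were then called lower. A gene was called higher or lower when its adjusted p was under 0.05 in limma with Benjamini-Hochberg adjustment over all 18334 genes. Unless a comparison is said to be fitted alone, intervals and p-values used a spread pooled over all 3 comparisons. They do not come from the SD printed beside a mean. For SESN2, CHAC1, PPP1R15A and STC2 the SD was lower under TNFalpha alone than in either heteronemin comparison. Their intervals therefore do not show the spread of the heteronemin replicates alone. Replicate 1 stood apart in both heteronemin comparisons: for heteronemin over untreated, its ratios had an SD of 0.329 over all genes, and those of replicates 2 and 3 had 0.195 and 0.163. For cotreated over TNFalpha the SDs were 0.384 against 0.215 and 0.172. Results that turn on replicate 1 are given with and without it, and the cause of its departure was not tested. It was singled out from these same values, so all results without it are descriptions. Ratios from bulk RNA do not tell fewer expressing cells apart from less RNA per cell.

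Under heteronemin, SESN2, CHAC1, PPP1R15A and STC2 rose to between 2.07 and 2.79 times the untreated level. The remaining 5 genes, DDIT4, TRIB3, NUPR1, VEGFA and VLDLR, had mean ratios above 0 but did not pass the test. These 4 of 9 calls, all higher, compare with 2.29% of all genes called higher and 4.87% called in either direction. The 9 genes were chosen with earlier results of these data known, so this comparison describes them and is no test. The median over the 9 genes was 0.82, against 0.0083 over all genes. The mean ratio of SESN2 ranked 4 of 18334, that of CHAC1 ranked 9, PPP1R15A 16 and STC2 29. DDIT4 ranked 61 by its mean even though it missed the test. At an unadjusted p under 0.05 in limma there were 3333 genes, 7 of them members, all but DDIT4 and VLDLR. All 3 replicates were above 0 for 7 of the 9 genes, all but DDIT4 and TRIB3, as they were for 20.6% of all genes.

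The same 4 genes rose when heteronemin was added together with TNFalpha and compared with TNFalpha alone. In that comparison 3.39% of all genes were called higher and 6.55% in either direction, and the median over the 9 genes was 0.66, against 0.0081 over all genes. All 3 replicates were above 0 for 6 of the 9 genes, as for 18.7% of all genes. There 3883 genes, 5 of them members, had an unadjusted p under 0.05 in limma. Under TNFalpha alone none of the 9 genes was called, where 0% of all genes were called in limma. A fit that called no gene at all cannot show that the 9 genes were unchanged. At an unadjusted p under 0.05 there were 315 genes, 1 of them a member, PPP1R15A. All 3 replicates were above 0 for 4 of the 9 genes, PPP1R15A, CHAC1, NUPR1 and VLDLR, as for 13.3% of all genes. The TNFalpha comparison shares its untreated condition with the heteronemin comparison and its TNFalpha condition with the cotreated comparison, so the 3 sets of values are given side by side only.

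**Figure D1:**
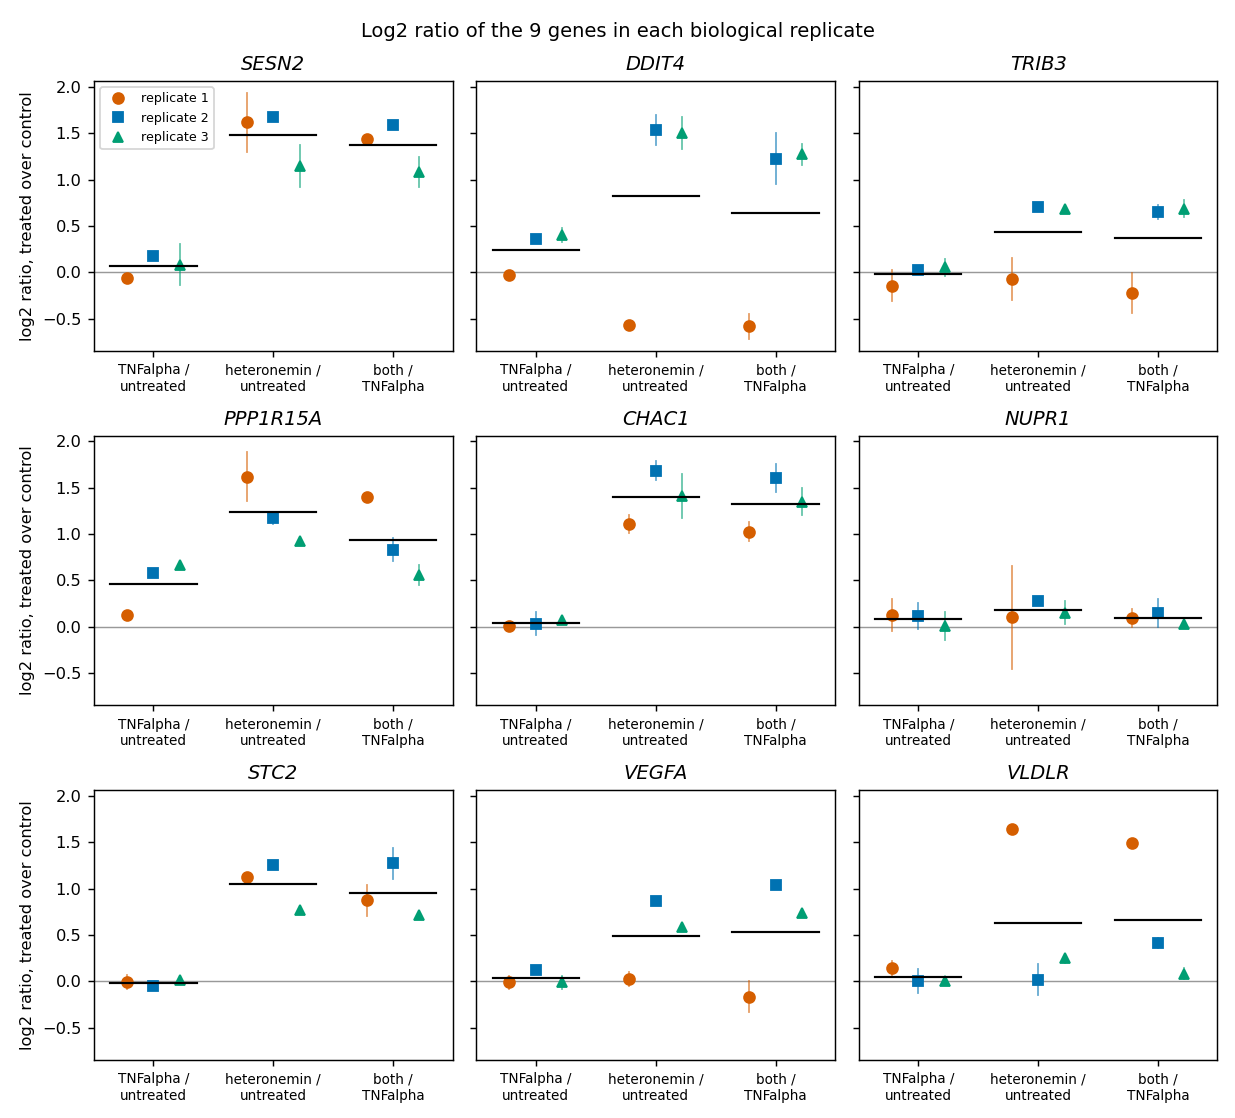
Log2 ratio of each of the 9 genes in each comparison and biological replicate, with the 2 dye-exchanged arrays of a replicate joined by a line and the mean over replicates as a bar. SESN2, CHAC1, PPP1R15A and STC2 lie above 0 in all 3 replicates of both heteronemin comparisons, whereas replicate 1 lies far below the others for DDIT4 and far above them for VLDLR.

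SESN2 and DDIT4 are the mTORC1 inhibitors of the group. SESN2, a sestrin, binds the GATOR2 complex as a leucine sensor and holds mTORC1 back when amino acids are scarce. Its ratio under heteronemin was 1.62, 1.67 and 1.15 in replicates 1 to 3. All 6 arrays were above 0, from 0.92 to 1.93. The mean of 1.48 ± 0.29 (SD, n = 3), or 2.79-fold with a 95% interval of 2.31 to 3.36, passed the limma test with an adjusted p of 0.000721. With TNFalpha present the ratio was 1.44, 1.59 and 1.08, a mean of 1.37 ± 0.26 with an adjusted p of 0.000969 in limma. TNFalpha alone gave -0.06, 0.18 and 0.08, a spread around 0 that does not overlap any heteronemin value.

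DDIT4, also called REDD1, inhibits mTORC1 by way of the TSC1-TSC2 complex and is known as a target of both ATF4 and hypoxia-inducible factor. Its ratio under heteronemin was -0.57, 1.54 and 1.50 in replicates 1 to 3. Replicate 1 thus lay below 0 on both of its arrays, at -0.56 and -0.59, while the 4 arrays of the other replicates lay between 1.33 and 1.70. The mean of 0.82 ± 1.21 (n = 3) had an adjusted p of 0.395 in limma and the gene was not called. With TNFalpha present the pattern was the same in kind, at -0.58, 1.23 and 1.27, with a mean of 0.64 ± 1.06 and an adjusted p of 0.461. TNFalpha alone gave -0.03, 0.36 and 0.40. Replicate 1 was the lowest of the 3 in each comparison.

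The promoter of DDIT4 is shown because it was the only one of those found for the group that held the hypoxia response core, which stands in capitals. The search covered RefSeq promoters of GRCh38.p14, running from 250 bases before the gene start to 50 after it. These existed for 7 of the 9 genes, as 9 promoters, and not for NUPR1 and VEGFA. The core ACGTG, on either strand, begins at position -125 relative to the start of DDIT4 (chr10:72273674-72273973, plus strand). The core was held by 21.4% of the 35116 promoters listed, so a match is common.
DDIT4: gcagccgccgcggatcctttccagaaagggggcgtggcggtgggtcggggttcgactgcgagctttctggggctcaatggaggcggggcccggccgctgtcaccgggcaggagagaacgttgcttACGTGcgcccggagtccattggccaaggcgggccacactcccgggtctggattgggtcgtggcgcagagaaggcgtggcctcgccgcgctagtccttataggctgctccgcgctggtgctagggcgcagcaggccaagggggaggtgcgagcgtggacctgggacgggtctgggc

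TRIB3, a pseudokinase known to bind AKT and to hold its activation back, gave -0.07, 0.71 and 0.68 under heteronemin. Replicates 2 and 3 were close together and replicate 1 was near 0. The mean of 0.44 ± 0.44 (n = 3) had an adjusted p of 0.274 in limma. With TNFalpha present the values were -0.22, 0.65 and 0.69, a mean of 0.37 ± 0.52 with an adjusted p of 0.315. TNFalpha alone gave -0.14, 0.03 and 0.05, which overlaps replicate 1 of heteronemin but not its other 2 replicates.

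PPP1R15A, or GADD34, is the inducible cofactor that brings protein phosphatase 1 to eIF2alpha and so reverses the block on translation. Its ratio under heteronemin was 1.62, 1.17 and 0.92, and all 6 arrays lay between 0.90 and 1.89. Replicate 1 was the highest here, in contrast to DDIT4. The mean of 1.24 ± 0.35 (n = 3), or 2.36-fold with a 95% interval of 1.79 to 3.12, had an adjusted p of 0.00705 in limma. With TNFalpha present the values were 1.40, 0.83 and 0.56, a mean of 0.93 ± 0.43, or 1.91-fold, with an adjusted p of 0.0176. PPP1R15A was also the member with the highest mean ratio under TNFalpha alone, at 0.13, 0.58 and 0.67. All 6 of those arrays were above 0, and the mean of 0.46 ± 0.29 had an unadjusted p of 0.0296 in limma but an adjusted p of 1.00. Its values under TNFalpha alone did not overlap those under heteronemin alone, while the highest TNFalpha value, 0.67, exceeded the lowest cotreated one, 0.56.

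CHAC1 is a gamma-glutamylcyclotransferase that breaks glutathione down and a well-known marker of ATF4 activity. Its ratio under heteronemin was 1.11, 1.69 and 1.41, with all 6 arrays between 1.01 and 1.79. Replicate 1 was the lowest but stood far above 0. The mean of 1.40 ± 0.29 (n = 3), or 2.64-fold with a 95% interval of 2.19 to 3.18, had an adjusted p of 0.000877 in limma. This interval and p rest on the pooled spread, which includes TNFalpha alone, where the SD of CHAC1 was 0.034. With TNFalpha present the values were 1.03, 1.61 and 1.35, a mean of 1.33 ± 0.29 with an adjusted p of 0.00113. TNFalpha alone gave 0.01, 0.03 and 0.08, so CHAC1 stayed within 0.08 of 0 in every replicate there.

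CHAC1 was also the only member whose promoter window held the C/EBP-ATF response element, searched as TGATGNAA on both strands. The match reads TTGCATCA on the gene's own strand and begins at position -209 relative to its start (chr15:40953221-40953520, plus strand, RefSeq on GRCh38.p14). It stands in capitals in the sequence below, which also shows where it lies relative to the 50 transcribed bases at the 3′ end. This element was held by 3.62% of the 35116 promoters. The windows of SESN2, DDIT4, TRIB3, PPP1R15A, STC2 and VLDLR did not hold these letters. That says nothing of elements outside the window or spelled otherwise, and no binding was measured.
CHAC1: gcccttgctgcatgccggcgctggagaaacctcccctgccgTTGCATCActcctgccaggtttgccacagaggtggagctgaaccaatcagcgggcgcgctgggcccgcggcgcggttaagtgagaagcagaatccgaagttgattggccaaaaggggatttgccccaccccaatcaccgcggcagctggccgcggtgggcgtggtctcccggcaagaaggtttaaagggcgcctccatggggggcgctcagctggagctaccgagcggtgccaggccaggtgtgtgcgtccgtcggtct

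NUPR1, a small stress-induced nuclear protein that works as a transcriptional cofactor, had the lowest mean ratio of the 9 genes under heteronemin. It gave 0.10, 0.28 and 0.15, a mean of 0.18 ± 0.09 (n = 3), with an adjusted p of 0.0856 in limma. The 3 replicates were all above 0, but the 2 arrays of replicate 1 disagreed in sign, at -0.45 with heteronemin RNA in Cy5 and 0.66 with it in Cy3. From the arrays with the treated RNA in Cy3 alone the mean was 0.41, with an adjusted p of 0.0313 in limma. From those with it in Cy5 the mean was -0.05, with an adjusted p of 0.844. Under TNFalpha alone the Cy3 arrays were also the higher ones, between 0.16 and 0.30, with the 3 Cy5 arrays between -0.14 and -0.02. With TNFalpha present NUPR1 gave 0.10, 0.15 and 0.03, a mean of 0.09 ± 0.06 with an adjusted p of 0.329. There the split was turned round: the 3 Cy5 arrays lay between 0.05 and 0.30 and the 3 Cy3 arrays between 0.00 and 0.01.

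Of the secreted factors, STC2 rose and VEGFA did not pass the test. STC2 is stanniocalcin 2, a secreted glycoprotein induced by endoplasmic reticulum stress. Its ratio under heteronemin was 1.13, 1.26 and 0.77, with all 6 arrays between 0.76 and 1.26. The mean of 1.05 ± 0.25 (n = 3), or 2.07-fold with a 95% interval of 1.74 to 2.47, had an adjusted p of 0.00234 in limma. With TNFalpha present it gave 0.87, 1.27 and 0.71, a mean of 0.95 ± 0.29 with an adjusted p of 0.00284. Under TNFalpha alone all 3 replicates lay between -0.05 and 0.02.

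VEGFA, the vascular endothelial growth factor, gave 0.02, 0.86 and 0.58 under heteronemin. Replicate 1 was near 0 and the other 2 were clearly above it. The mean of 0.49 ± 0.43 (n = 3) had an adjusted p of 0.273 in limma. With TNFalpha present the values were -0.17, 1.04 and 0.73, a mean of 0.54 ± 0.63 with an adjusted p of 0.195. TNFalpha alone gave -0.01, 0.12 and -0.01.

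VLDLR, the very-low-density lipoprotein receptor and the only receptor of the group, showed the opposite pattern. It gave 1.64, 0.02 and 0.25 under heteronemin and 1.49, 0.41 and 0.08 with TNFalpha present. Its 2 arrays in replicate 1 agreed closely, at 1.67 and 1.61 in the first comparison and 1.50 and 1.49 in the second, so the high ratio was not particular to 1 array. The means of 0.63 ± 0.88 and 0.66 ± 0.74 had adjusted p of 0.353 and 0.283 in limma. TNFalpha alone gave 0.14, 0.00 and 0.01.

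No gene passed the test of whether the effect of heteronemin differed with TNFalpha present: 0 of 18334 genes, or 0%, were called in limma, against 475 at an unadjusted p under 0.05, none of them a member. The differences below are the cotreated ratio minus the heteronemin ratio. They were -0.11 for SESN2 (95% interval -0.49 to 0.27), -0.07 for CHAC1 (-0.46 to 0.31) and -0.10 for STC2 (-0.46 to 0.26). PPP1R15A had the most negative difference of the 9, -0.22, -0.34 and -0.36 in replicates 1 to 3, with a mean of -0.31 and an interval from -0.87 to 0.26. SESN2, DDIT4, CHAC1 and NUPR1 were likewise below 0 in all 3 replicates, so 5 of the 9 genes were, as were 13.4% of all genes. For DDIT4 the interval ran from -1.63 to 1.27 and for VLDLR from -1.0 to 1.06. NUPR1 had the narrowest interval, from -0.24 to 0.07, followed by STC2. The remaining intervals were -0.69 to 0.55 for TRIB3 and -0.64 to 0.74 for VEGFA. These intervals take no account of the pairing of same-numbered replicates, which deviated together in the heteronemin comparisons. Within replicates, the differences of DDIT4 were closer together than its interval, at -0.01, -0.31 and -0.22. A block for replicate number in these comparisons was fitted after the data were seen, and called none of the 9 genes (adjusted p from 0.806 to 0.974 in limma).

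**Figure D2:**
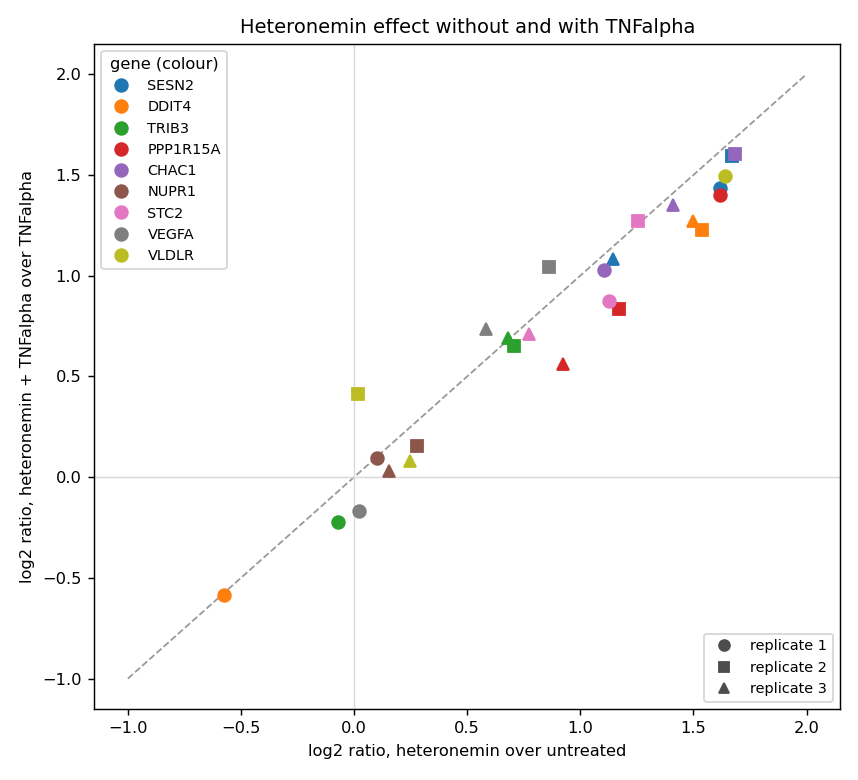
Log2 ratio under heteronemin over untreated (horizontal) against cotreated over TNFalpha (vertical) for each of the 9 genes (colour) in each biological replicate (marker), with the dashed line of equality. The 3 points of PPP1R15A lie below the line by 0.22 to 0.36, and replicate 1 of DDIT4 lies at the lower left, at -0.57 and -0.58.

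Replicate 1 departed from the others by different amounts for different genes. For each gene, the ratio in replicate 1 was compared with the mean of replicates 2 and 3. DDIT4 had a shift of -2.09 under heteronemin, rank 18334 of 18334 genes and thus the most negative of all, and -1.83 with TNFalpha present, where 0.0218% of genes lay lower. TRIB3 shifted by -0.77 and -0.89, and VEGFA by -0.70 and -1.06. Between 0.485% and 1.70% of genes lay lower than these 4 values. VLDLR moved the other way, by 1.51 (rank 60 from the highest) and 1.25 (rank 198), and PPP1R15A by 0.57 and 0.70. STC2 and SESN2 had shifts between -0.12 and 0.21.

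Without replicate 1 in any comparison, 8 of the 9 genes were called higher under heteronemin, all but VLDLR, where 7.17% of all genes were called higher and 13.9% in either direction. DDIT4 was then 1.52 with an adjusted p of 1.42e-05, VEGFA 0.72 with 0.00259, TRIB3 0.70 with 0.000157, and NUPR1 0.22 with 0.0349, all in limma. With TNFalpha present 7 of 9 were called higher, all but NUPR1 and VLDLR, against 10.4% of all genes called higher and 18.5% in either direction. DDIT4 was then 1.25, VEGFA 0.89 and TRIB3 0.67, with adjusted p of 5.93e-05, 0.000882 and 0.000157 in limma. VLDLR fell short in both, at 0.13 (adjusted p of 0.387) and 0.25 (adjusted p of 0.0842). Under TNFalpha alone 2 of 9 were called higher, DDIT4 at 0.38 (adjusted p of 0.00746) and PPP1R15A at 0.62 (adjusted p of 0.0249), against 0.322% of all genes called higher and 0.338% in either direction. These fits rest on 2 replicates a comparison. Of the differences between the heteronemin effects with and without TNFalpha, 0 of 9 were called, where 0.0164% of all genes were called.

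**Figure D3:**
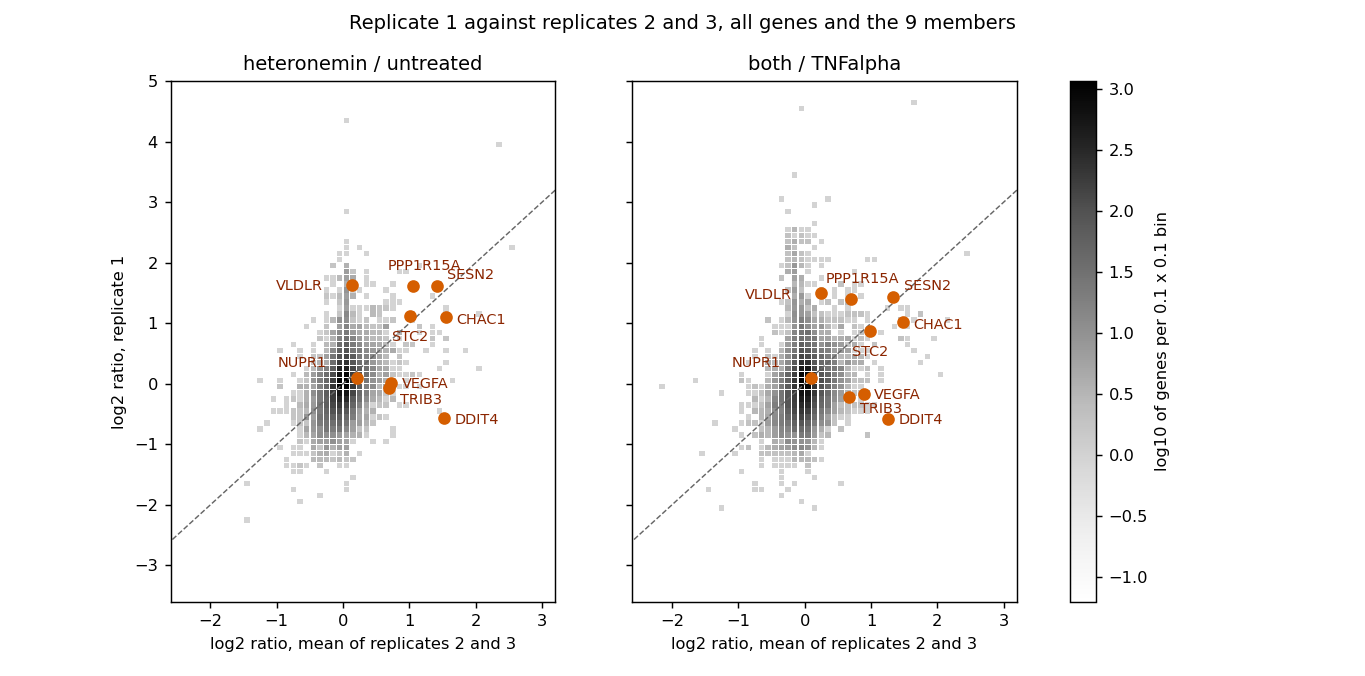
Log2 ratio in replicate 1 (vertical) against the mean of replicates 2 and 3 (horizontal) for all 18334 genes as shaded bins, with the 9 genes as points and the line of equality. DDIT4 lies at the lower right, at 1.52 and -0.57 under heteronemin, and VLDLR at the upper left of the other members, at 0.13 and 1.64.

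The calls for SESN2, CHAC1, PPP1R15A and STC2 also depended on how the spread was estimated. With each comparison fitted alone, no gene was called in either heteronemin comparison, and the 4 genes had adjusted p between 0.0975 and 0.107 under heteronemin and between 0.154 and 0.199 with TNFalpha present in limma. With a spread that followed the mean ratio and a robust prior, the 4 had adjusted p between 0.0608 and 0.0748 under heteronemin, and PPP1R15A lost its call with TNFalpha present (adjusted p of 0.0950). PPP1R15A lost its call without replicate 2 of the heteronemin comparison (adjusted p of 0.0584) and without replicate 1 or replicate 2 of the cotreated comparison (0.0577 and 0.0831). Without replicate 2 in any comparison none of the 4 was called, with adjusted p between 0.110 and 0.259 under heteronemin and between 0.107 and 0.294 with TNFalpha present. Without replicate 3 in any comparison SESN2 and STC2 kept their call under heteronemin and SESN2 alone did with TNFalpha present. Over all 16 alternatives under heteronemin, SESN2 lay between 1.30 and 1.66 (adjusted p from 4.24e-08 to 0.122) and CHAC1 between 1.26 and 1.55 (from 4.10e-08 to 0.110). PPP1R15A lay between 1.05 and 1.40 (from 4.15e-06 to 0.259) and STC2 between 0.95 and 1.49 (from 2.20e-07 to 0.122). With TNFalpha present PPP1R15A lay between 0.70 and 1.12 and STC2 between 0.79 and 1.34. All these values stayed above 0.

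Features of the same gene agreed to different degrees. The 2 features of DDIT4 both had their lowest ratio in replicate 1. The feature annotated to the reference mRNA gave -1.05, 1.38 and 1.91 under heteronemin, and the one annotated to an expressed sequence tag gave -0.09, 1.69 and 1.09. They parted under TNFalpha alone, where the first gave -0.11, 0.70 and 0.70 and the other stayed between 0.01 and 0.11 in every replicate. The TNFalpha ratio of DDIT4 above 0 in replicates 2 and 3 thus came mainly from the first feature.

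TRIB3 had 1 feature at -0.14, 1.28 and 0.80 and another at 0.00, 0.14 and 0.56 under heteronemin. Neither was called. The 2 features of STC2 differed in size but were both called: 1 gave 1.31, 1.88 and 1.28 (adjusted p of 0.00235 in limma over features) and the other 0.94, 0.63 and 0.27 (adjusted p of 0.0318). With TNFalpha present their means were 1.34 and 0.56, with adjusted p of 0.00291 and 0.0373.

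The 13 features of VEGFA, all annotated to the same gene, moved together by replicate. Under heteronemin they ranged from -0.50 to 0.25 in replicate 1, from 0.41 to 1.03 in replicate 2 and from 0.49 to 0.74 in replicate 3. The ranges of replicate 1 and of the other replicates do not overlap. With TNFalpha present they ranged from -0.51 to 0.21, from 0.61 to 1.30 and from 0.20 to 0.91. Under TNFalpha alone they lay between -0.15 and 0.16 but for 1 feature at 0.63 in replicate 2. Tested singly in limma, 0 of 13 were called under heteronemin and 1 of 13 with TNFalpha present. Features of 1 gene read the same RNA and are not replicates.

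**Figure D4:**
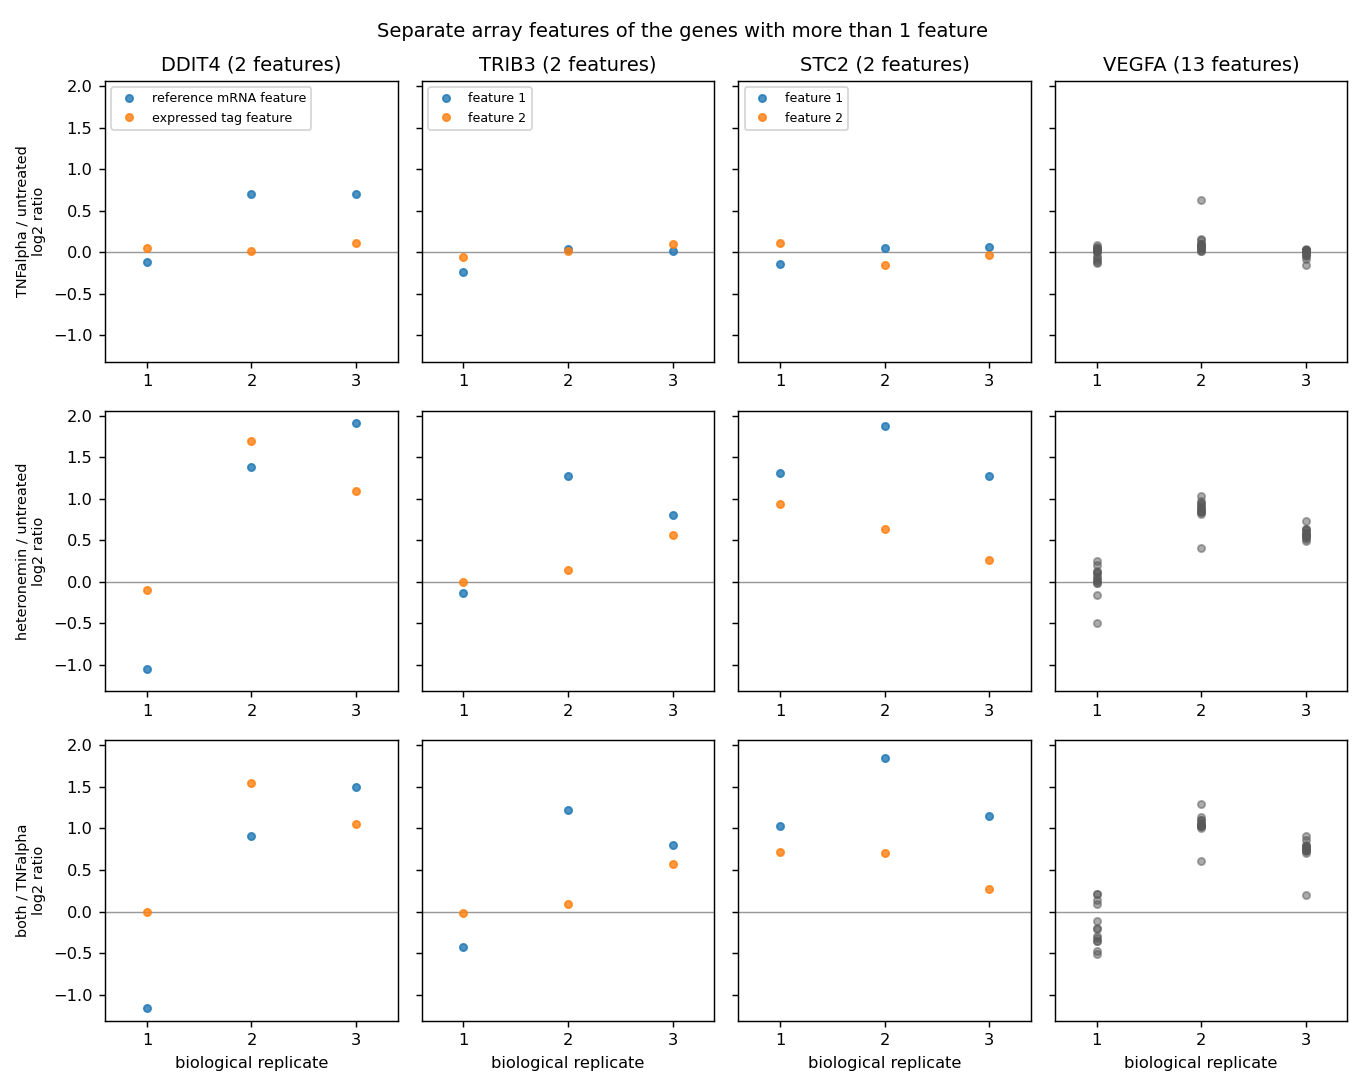
Log2 ratio of each single feature of DDIT4, TRIB3, STC2 and VEGFA in each biological replicate and comparison. The 13 VEGFA features lie near or below 0 in replicate 1 of the heteronemin comparisons and above it in replicates 2 and 3; the 2 DDIT4 features part under TNFalpha alone.

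For each called gene, the nearest genes outside the group were found by the Euclidean distance over its 9 replicate ratios, a description with no test. CEBPB, a transcription factor that partners with ATF4, was the nearest gene to both CHAC1 (distance 0.335) and SESN2 (distance 0.603). Its ratios under heteronemin were 1.22, 1.62 and 1.45. The next nearest were JDP2, a transcription factor of the AP-1 superfamily, for CHAC1 (distance 0.518) and HBP1, a transcriptional repressor, for SESN2 (distance 0.643). BTG1, an antiproliferative gene, was nearest to PPP1R15A (distance 0.642). It showed the same order of replicates under heteronemin, at 1.81, 0.86 and 0.78, and ratios above 0 under TNFalpha alone, at 0.21, 0.46 and 0.31. IL23A, a cytokine subunit, came next (distance 0.867). ADPRM and KLHL24 were nearest to STC2 (distances 0.476 and 0.481).

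Genes around these effectors in the pathway were counted from lists chosen with earlier results of these data known. The counts therefore describe the chosen genes and are no test of the pathway. They are given beside the percentages of all genes called. Of 11 genes listed as transcription factors and regulators of the ATF4 pathway, 7 rose under heteronemin, none fell, and 4 were not called. The share of all genes called higher was 2.29%. The median of the list was 0.91. DDIT3, which encodes CHOP, rose by 2.42 ± 0.25, CEBPB by 1.43 ± 0.20, KLHL24 by 1.01 ± 0.30 and CEBPG by 0.91 ± 0.24, all n = 3, with adjusted p between 0.000155 and 0.00451 in limma. ATF4 itself, singled out after its values were seen, gave 0.55, 0.59 and 0.30 (adjusted p of 0.00701), a smaller ratio than those of the 4 called effectors. With TNFalpha present 7 of 11 again rose, against 3.39% of all genes, none fell, and the median was 0.83. Without replicate 1 the counts were 8 and 9, where 7.17% and 10.4% of all genes were called higher.

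Of 23 genes listed as ATF4-driven, for amino acid metabolism, amino acid transport and aminoacyl-tRNA synthetases, 9 rose and 14 were not called under heteronemin, with a median of 0.24. The synthetases, WARS1, NARS1, GARS1, SARS1 and AARS1, were not called in either heteronemin comparison with all 3 replicates. The share of all genes called higher was 2.29%. With TNFalpha present 10 rose, against 3.39% of all genes, and 13 were not called, with a median of 0.26. SLC38A2, a neutral amino acid transporter, rose by 0.86 ± 0.12 under heteronemin. PCK2, the mitochondrial phosphoenolpyruvate carboxykinase, rose by 0.68 ± 0.14, and the serine synthesis enzymes PHGDH and PSAT1 by 0.68 ± 0.11 and 0.52 ± 0.13. Their adjusted p in limma were between 0.000871 and 0.00964 (n = 3). Without replicate 1 the list had 14 called higher and 1 lower under heteronemin, and 16 and 1 with TNFalpha present. The shares of all genes called in either direction were then 13.9% and 18.5%.

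Genes that act with PPP1R15A on eIF2alpha were also counted. Of 16 genes for the eIF2alpha kinases, the phosphatase, eIF2 and its exchange factor, none was called under heteronemin, and the median was 0.01. With 4.87% of all genes called in either direction, none of 16 is near that share. With TNFalpha present 1 fell, EIF2B1, a subunit of the exchange factor, by -0.28 ± 0.14 (adjusted p of 0.0431 in limma), and the median was -0.06. There 6.55% of all genes were called in either direction. EIF2B1 had -0.27 ± 0.14 under heteronemin alone (adjusted p of 0.0653). EIF2AK2, the kinase PKR, had -0.33 ± 0.23 (adjusted p of 0.102), EIF2S1, which encodes eIF2alpha, -0.30 ± 0.21 (adjusted p of 0.308), and EIF2B5 0.14 ± 0.11 (adjusted p of 0.266). Without replicate 1 the list had 0 higher and 2 lower under heteronemin, and 3 and 3 with TNFalpha present. The shares of all genes called in either direction were then 13.9% and 18.5%.

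Of 13 measured paralogs of the 9 genes none rose in either heteronemin comparison. That is near the 2.29% and 3.39% of all genes called higher. In either direction 4.87% and 6.55% of all genes were called. TRIB1, a pseudokinase like TRIB3, gave -0.40, -0.22 and -0.19 and fell under heteronemin (adjusted p of 0.0407 in limma), as did LRP8, an apolipoprotein E receptor related to VLDLR, at -0.35, -0.35 and -0.18 (adjusted p of 0.0361). TRIB2 fell with TNFalpha present, at -0.43, -0.35 and -0.21 (adjusted p of 0.0351). The other paralogs were not called in either comparison. PPP1R15B of this list was also counted among the genes acting on eIF2alpha. CHAC2 had -1.12, -0.40 and -0.18 under heteronemin (adjusted p of 0.168) and NUPR2 -0.29, -0.08 and -0.17 (adjusted p of 0.103). The median of the paralogs was -0.05 under heteronemin and -0.11 with TNFalpha present. Without replicate 1, 4 and 3 were called lower and none higher. Among all 18334 genes 1226 and 1499 were then called lower.

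Genes for the complex that SESN2 and DDIT4 act on, and for its regulators, were counted in the same way. Of 29 genes for mTORC1, the TSC complex and amino acid sensing, none rose and 1 fell under heteronemin, with a median of 0.00. This is near the 4.87% of all genes called in either direction. LAMTOR5, a subunit of the Ragulator complex that anchors mTORC1 to the lysosome, gave -0.43, -0.41 and -0.22 (adjusted p of 0.0121 in limma). With TNFalpha present LAMTOR5 fell again, by -0.33 ± 0.11 (adjusted p of 0.0139), and RRAGA, a Rag GTPase, fell by -0.39 ± 0.22 (adjusted p of 0.0421). DEPDC5, a subunit of the GATOR1 complex that inhibits mTORC1, rose by 0.29 ± 0.12 (adjusted p of 0.0163), and the median was -0.04. In that comparison 6.55% of all genes were called in either direction. SEH1L, of GATOR2, had -0.36 ± 0.25 under heteronemin (adjusted p of 0.101). Without replicate 1 the list had 3 higher and 5 lower under heteronemin, and 4 and 5 with TNFalpha present. The shares of all genes called in either direction were then 13.9% and 18.5%.

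VEGFA and DDIT4 are also hypoxia-inducible, and 19 other targets of hypoxia-inducible factor were counted for comparison. Under heteronemin 1 rose, 1 fell and 17 were not called, with a median of 0.04. Over all genes 4.87% were called in either direction. KDM3A, a histone demethylase, rose by 0.45 ± 0.19 (adjusted p of 0.0144 in limma), and HK2, hexokinase 2, fell by -0.47 ± 0.19 (adjusted p of 0.0184). MXI1 had 0.39 ± 0.11 (adjusted p of 0.114) and PDK1 -0.13 ± 0.05 (adjusted p of 0.197). With TNFalpha present 2 rose, KDM3A and BNIP3L, and 2 fell, HK2 and EGLN3, with a median of 0.02. There 6.55% of all genes were called. Without replicate 1 there were 4 higher and 2 lower, and 5 and 3 with TNFalpha present, and 1 of 19 was called higher under TNFalpha alone. The shares of all genes called in either direction were then 13.9%, 18.5% and 0.338%.

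Of 8 other secreted stress factors none was called in any comparison. This is near the shares of all genes called: 0% under TNFalpha, 4.87% under heteronemin and 6.55% with TNFalpha present. STC1, VEGFB, VEGFC and PGF of this list were also counted among the paralogs above. GDF15, a cytokine of the stress response, gave -0.13, 0.25 and 1.06 under heteronemin, with its highest value in replicate 3 and an adjusted p of 0.363 in limma. PGF, the placental growth factor of the VEGF family, gave 1.06, 0.03 and -0.12, with replicate 1 high as for VLDLR and an adjusted p of 0.570. VEGFB gave -0.12, -0.11 and -0.01, and IGFBP1 0.06, 0.29 and -0.03. The median was 0.08 under heteronemin and 0.07 with TNFalpha present. Under TNFalpha alone 0 genes of any of these lists were called with all 3 replicates.

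**Figure D5:**
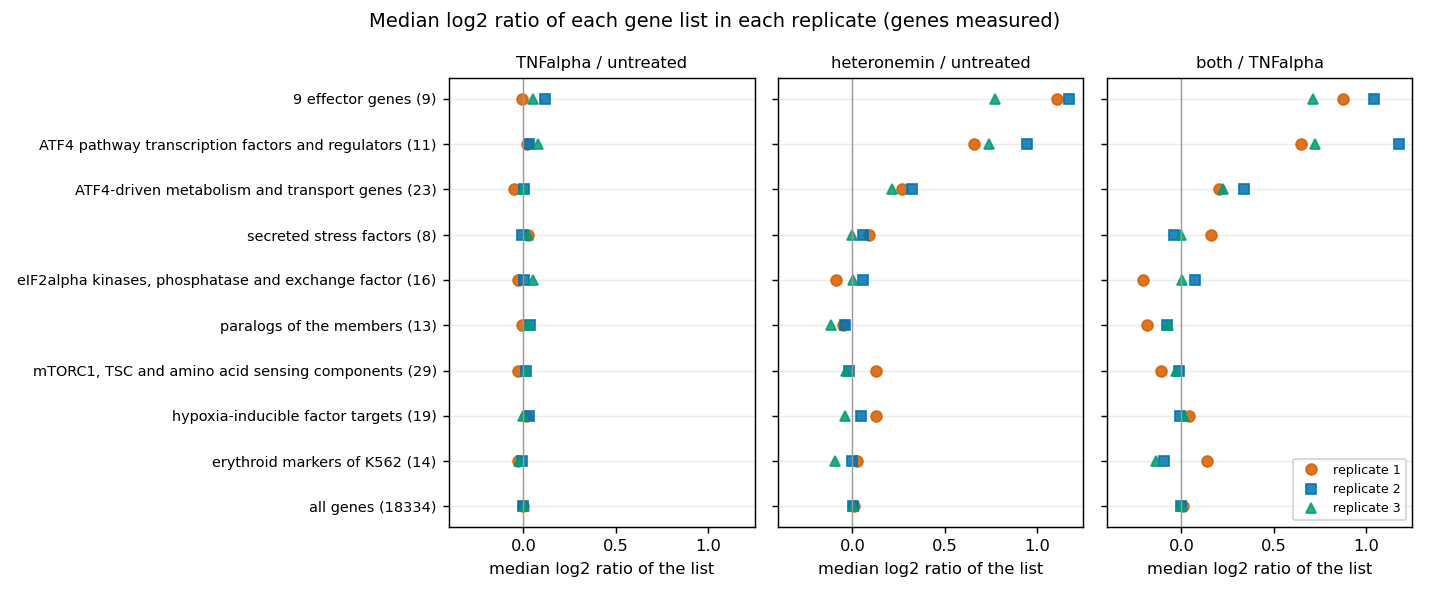
Median log2 ratio over the measured genes of each list (their number in brackets) in each biological replicate, for the 3 comparisons. Under heteronemin the 9 genes lie between 0.77 and 1.17 and the ATF4 regulators between 0.66 and 0.94, while the lists for eIF2alpha, paralogs, mTORC1 and hypoxia lie within 0.13 of 0.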

How the data were processed

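Expression in K562 cells was measured on 2-colour Agilent arrays. The authors deposited a log2 ratio for every feature of each array, computed with limma per the submitters' processing notes. The limma version, background handling and normalization method were not given in the sources used here. Values were taken as log2, the scale of limma, and as treated over control, from the array titles and from large changes keeping their sign on dye-exchanged arrays. Intensities were not used, so the signal over background is unknown. Precision is limited by how many arrays there were.

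Of 45220 features, 31332 had exactly 1 gene. Features of a gene were averaged, then the 2 arrays of a biological replicate. limma 3.58.1 (R 4.3.3) fitted 1 mean per comparison with a spread pooled over the 9 values, two-sided, with Benjamini-Hochberg adjustment at 0.05, and a contrast for the difference between the heteronemin effects. Simulated data with independent noise were used to check that known shifts were recovered. They lacked shared deviations of same-numbered replicates, so they cannot show how reliable the calls are. Same-numbered replicates deviated together in the 2 heteronemin comparisons (correlations over genes 0.781, 0.626 and 0.622). Between TNFalpha over untreated and heteronemin over untreated the correlations were -0.210, 0.0306 and -0.0948. Between TNFalpha over untreated and cotreated over TNFalpha they were -0.326, -0.220 and -0.274, all below 0. The TNFalpha condition stands on opposite sides of these last ratios, and the cause of the correlations was not tested. Promoters came from RefSeq (GRCh38.p14).

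The 9 genes and all lists were chosen with earlier results of these data known. Named were all 9 genes, up to 4 genes per list with the smallest p under heteronemin, called paralogs, and the 2 nearest genes to each called member. Alternatives covered the replicate block, the estimation of the spread, dye, scaling, features and left-out replicates. Listed genes without a value were not analysed here.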

Additional observations from a re-analysis of the deposited data

How the results depend on the processing

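Of 612 values of the 9 genes under an alternative, none changed sign while called, and 39 changed sign without being called in either fit. Of all genes, 0 were called under TNFalpha, against 7 with the replicate block, 6 with the comparison fitted alone, 32 with 18 arrays and an estimated pair correlation, 4 from either dye orientation alone and 4 with arrays scaled. Leaving out replicates gave 0 to 62 genes and 0 to 2 of the 9. Under heteronemin 892 genes were called, against 0 genes and 0 of the 9 with the comparison fitted alone, 0 and 0 when the prior was trended and robust, 1731 with 18 arrays, 553 from treated RNA in Cy3 and 1421 features tested singly. Leaving out replicates gave 2 to 2540 genes and 0 to 8 of the 9. With TNFalpha present 1200 genes were called, against 0 genes and 0 of the 9 fitted alone, 276 with the trended prior, 2173 with 18 arrays, 693 in Cy3 and 1881 features. Leaving out replicates gave 2 to 3397 genes, 0 to 7 of the 9 and a median of the 9 between 0.79 and 0.95. For the difference between the heteronemin effects it gave 0 to 3 genes. The replicate block gave 1102 and 1493 genes in the heteronemin comparisons and changed no call of the 9; a block in those comparisons alone, chosen after seeing the data, called none of the 9 for the difference. The causes of these changes were not tested. Filters on dim features were not run, for want of intensities.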
